A study of Mus musculus with 24 samples.

Results

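The genes of the TGF-beta and BMP pathway were described across P19 cells and mouse embryonic fibroblasts (MEFs), each untransduced or given MyoD or NeuroD2. Members were chosen by symbol. They were the BMP and GDF ligands (Gdf3 left out), Tgfb1 to Tgfb3, the inhibin and activin subunits Inha, Inhba and Inhbb, the Tgfbr, Acvr and Bmpr receptors, the Smads, Grem1, Nog, Chrd, Fst, Fstl1, Fstl3 and Tgfbi. The rule found 48 of the 18193 genes measured. They comprised 14 BMP and GDF ligands, 6 TGF-beta and activin ligands, 12 receptors, 8 Smads, 6 secreted antagonists and follistatins, and a last group of 2, the protease Bmp1 and the matrix protein Tgfbi. Where a gene had several probe sets, the one brightest on average over the arrays was used; 30 of the 48 had more than 1 probe set. Gdf1 shared its probe set with Cers1 and was not used.

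Ligands of this family bind pairs of type I and type II receptor kinases at the cell surface. TGF-beta and activin receptors phosphorylate Smad2 and Smad3, BMP receptors phosphorylate Smad1, Smad5 and Smad9, and both sets enter the nucleus with Smad4, while Smad6 and Smad7 inhibit the chain. Noggin, chordin and gremlin trap BMPs outside the cell, and follistatin traps activins. BMP ligands are known for directing cell fate in the early embryo, TGF-beta for its action on fibroblasts and their matrix, and follistatin for antagonising myostatin and activin in muscle.

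RNA was measured on 24 Affymetrix mouse arrays, in 8 groups of 3. P19 is an established mouse embryonal carcinoma line with stem cell properties, and the MEFs of every group, controls included, came from mice lacking both Myod and Myf5. MyoD and NeuroD2 are basic helix-loop-helix transcription factors, the first a master regulator of skeletal muscle and the second active in neurons. The comparisons asked which genes each factor changed in each cell type. In batch 1, P19 cells and MEFs were each measured untransduced and with MyoD. In batch 2 were the MEFs labelled NeuroD2 and their own untransduced controls, and in batch 3 the P19 cells with NeuroD2 and theirs. The factors were carried by lentivirus with 8 µg/ml polybrene, and fresh medium was given at 24 hours. P19 cells were collected at 72 hours. MEFs were kept in DMEM with 10% FBS. MEFs with MyoD went at 48 hours into medium with 1% horse serum, 10 µg/ml insulin and 10 µg/ml transferrin and were collected 36 to 40 hours after that, so MyoD, the virus and this medium cannot be told apart in them. When the MEFs labelled NeuroD2 were collected, the sources used here do not say. Controls received no virus, so the virus and the factor cannot be told apart in any group. Groups were read from titles and source names, because the cell type label of the MyoD samples speaks of neuronal differentiation. The labels do not say that the 3 samples of a group were separate cultures, so p-values measure the spread between these samples, which may be technical.

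Values are log2 signals, on which a difference of 1 is a 2-fold change, and the number of arrays limits their precision. "Rose", "fell" and "called" refer to an adjusted p under 0.05 in limma, Benjamini-Hochberg adjusted over all 18193 genes. Array quartiles were 4.47 to 4.58 and 8.23 to 8.39, except for replicate 2 of the P19 controls of batch 1, with 4.79 and 7.63 and a mean correlation of 0.919 with its own group. On 1 of its probe sets Myod1 rose by 3.94 in P19 cells and 5.55 in MEFs with MyoD. Neurod2 rose by 1.70 on 1 of 3 probe sets in P19 cells. The MEFs labelled NeuroD2 differed from their controls on these 3 probe sets by -0.06, 0.21 and -0.12 (limma adjusted p 0.943, 0.679 and 0.791), so the array does not show the factor there. With MyoD 5 of 6 skeletal muscle markers rose in P19 cells and 6 of 6 in MEFs. Of the neuronal markers, 6 of 6 rose in P19 cells with NeuroD2 and 1 of 6, Tubb3, in the MEFs labelled NeuroD2. Fibroblast markers averaged 12.9 to 13.3 in MEF controls and fell, 7 of 8, with MyoD. The 5 pluripotency markers averaged 10.9 to 12.1 in the P19 arrays and 4.68 to 5.06 in the MEF arrays, and 0 were called with either factor. The averages of blood and endothelial markers stayed between 4.98 and 6.06 on every array. The 4 epithelial markers averaged 8.04 to 9.48 on the P19 arrays and 4.51 to 5.12 on the MEF arrays. In P19 cells 1 of them fell with MyoD (Krt19 by 1.80) and 2 with NeuroD2 (Epcam by 1.04 and Krt19 by 1.24). Of the 8 fibroblast markers, Col1a1 fell there with MyoD by 1.33, and with NeuroD2 Thy1 fell by 1.16, Dcn fell by 2.89 and Pdgfrb rose by 1.04. The part of these markers in the members' changes in P19 cells was not tested. In bulk RNA, fewer cells of a type and less RNA per cell cannot be told apart.

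Bmp4, Inhbb and Tgfb1 fell in P19 cells with MyoD. There 0 of 48 rose, against 2.03% of all genes, and these 3 fell, which is 6.25% of the members against 0.676% of all genes. At an unadjusted p under 0.05, 20 members differed there, 21 in MEFs with MyoD and 12 in P19 cells with NeuroD2. The share of all genes at that threshold was not counted, so these numbers show nothing particular to the members. The median difference was -0.14 over the members and 0.04 over all genes. Without replicate 2 of the controls 0 rose and 4 fell (Bmp4, Fstl1, Smad6 and Tgfb1), against 2.09% and 1.85% of all genes, so the call of Inhbb rests on that array. Without control replicate 1 or 3, which leaves that array as 1 of 2 controls, 18 and 24 members were called, near the 19 then called in MEFs with MyoD or above it, while the genes called overall numbered 3758 higher and 2358 lower, and 4837 and 3027. The 18 were 20.8% higher and 16.7% lower, against 20.7% and 13% of all genes. The 24 were 27.1% and 22.9%, against 26.6% and 16.6%. Without MyoD replicate 3, 1 member was called, a fall (2.08%, against 0.198% of all genes). Over all genes 370 rose and 123 fell, but 417 and 348 after a further quantile normalization.

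In MEFs with MyoD 18 members were called. Of these 6 rose (Chrd, Fst, Inhbb, Acvr2b, Smad3 and Gdf9), 12.5% of the members against 10.8% of all genes. A further 12 fell (Tgfbi, Tgfbr3, Grem1, Fstl1, Bmp1, Tgfb1, Tgfb3, Inhba, Smad7, Acvr1b, Smad6 and Inha), 25% of the members against 14.5% of all genes. The share of rises lies near the background, and that of falls above it. The median was -0.05 over the members and 0.00 over all genes. The averaged fibroblast markers fell in the same arrays, from 12.9 to 13.0 in the controls to 10.8 to 10.9 with MyoD, and their part in the falls was not tested.

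In P19 cells with NeuroD2, 3 members rose (Bmp1, Tgfbr1 and Smad5), 6.25% against 5.1% of all genes. A further 4 fell (Tgfb3, Tgfbr2, Fstl1 and Tgfb1), 8.33% against 3.24%. With each array shifted to the same median the counts were 1 and 3 (2.08% and 6.25%, against 4.39% and 3.23% of all genes). Without replicate 2 of the batch 1 P19 controls, which enters only the pooled spread here, 8 rose and 8 fell, against 10.9% and 11.2% of all genes. Without NeuroD2 replicate 2 the calls numbered 3 (2.08% higher and 4.17% lower, against 3.81% and 1.81% of all genes). Without NeuroD2 replicate 3 they numbered 4 (4.17% each way, against 3.89% and 2.31%). Neuronal markers averaged 10.0 to 10.8 in these arrays and 7.29 to 7.58 in their controls, and their part in these counts was not tested.

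In MEFs labelled NeuroD2, 9 members rose (Bmp4, Tgfb2, Chrd, Smad6, Bmp6, Bmpr1a, Smad3, Inha and Gdf9), 18.8% against 6.41% of all genes. A further 8 fell (Grem1, Fst, Tgfb3, Tgfbr3, Inhba, Acvr1b, Tgfb1 and Fstl1), 16.7% against 5.94%. The medians lay near 0, at -0.04 over the members and -0.02 over all genes. Fibroblast markers averaged 13.0 to 13.1 with NeuroD2 and 13.3 in the controls, and Fbln1 alone of the 8 was called. Without replicate 2 of the batch 1 P19 controls 14 rose and 10 fell, against 13.8% and 13.3% of all genes.

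**Figure D1:**
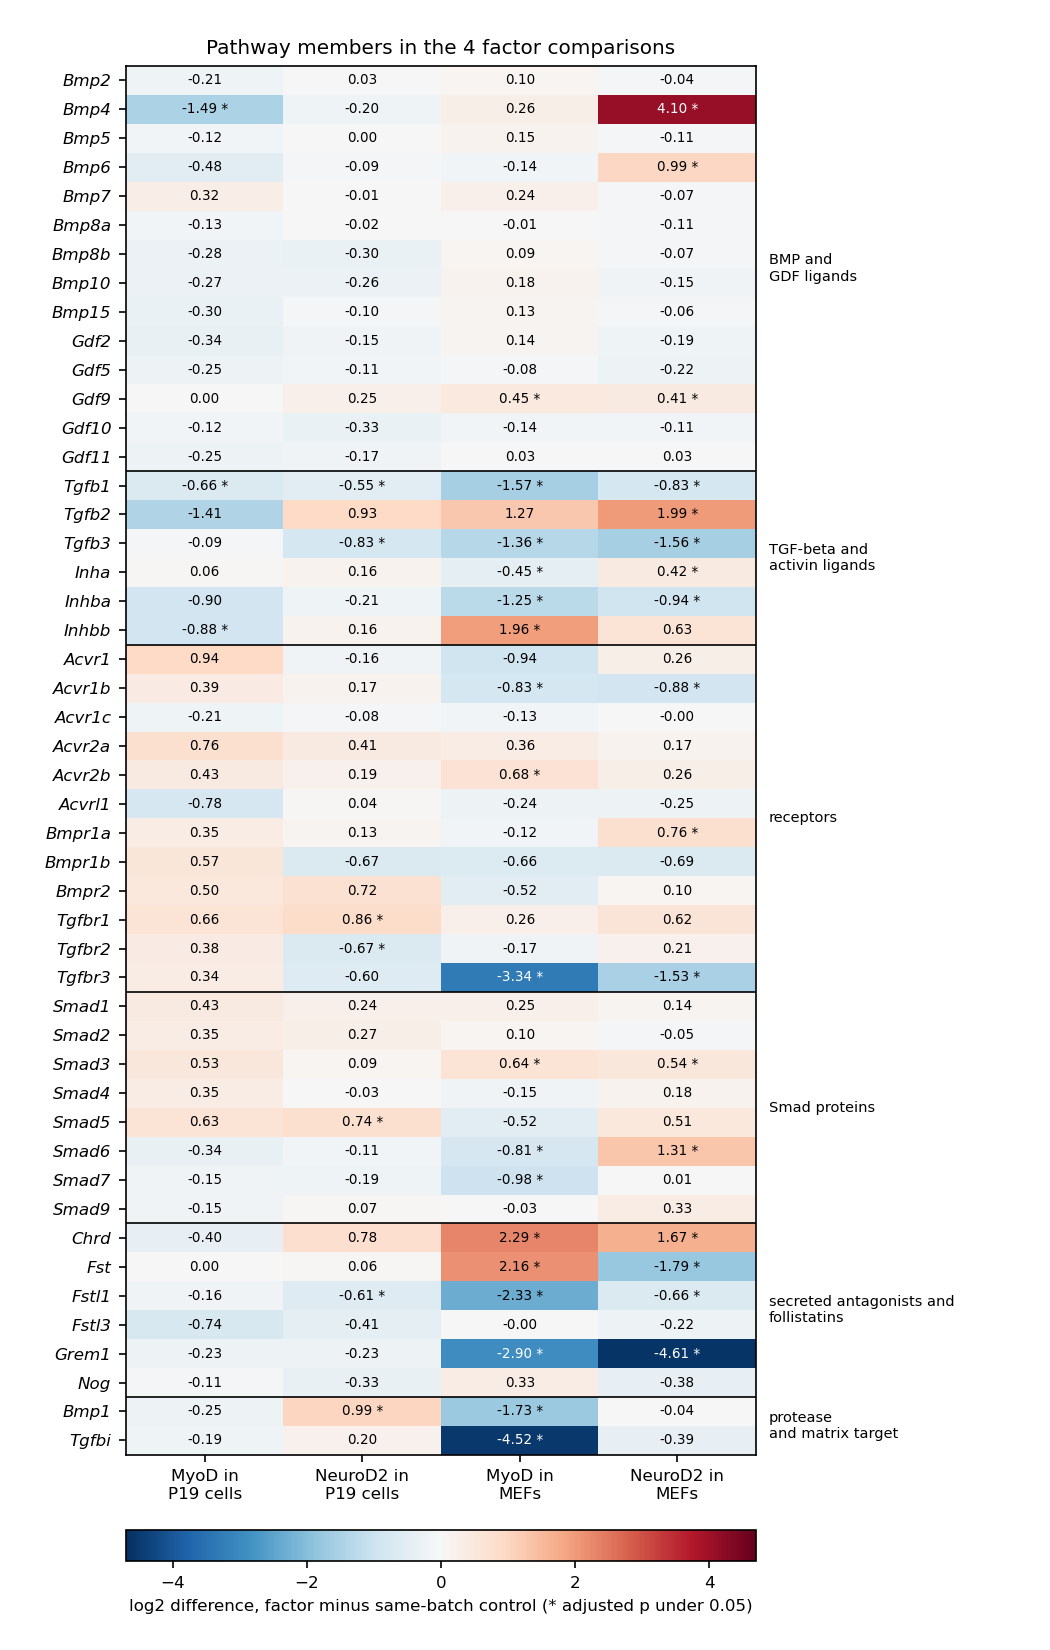
Log2 difference of each of the 48 members between cells with a factor and the untransduced controls of the same batch (3 arrays against 3), grouped by role; colour gives the difference and a star an adjusted p under 0.05. The strongest colours are the rise of Bmp4 (4.10) and the fall of Grem1 (-4.61) in MEFs labelled NeuroD2 and the fall of Tgfbi (-4.52) in MEFs with MyoD.

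Among the BMP ligands, Bmp4 carried the widest changes. Bmp4 is a secreted ligand that patterns the early embryo and holds back neural fate. In the P19 controls of batch 1 its signals were 8.34, 8.34 and 8.64, and with MyoD 6.90, 6.99 and 6.95. The groups did not overlap, and Bmp4 fell by 1.49 (SE 0.268, limma adjusted p 0.00242). Against the P19 controls of batch 3 the same arrays gave -0.55 (adjusted p 0.240), because the mean of those controls was 7.49 ± 0.75 (SD, n = 3). In that batch Bmp4 read 6.64, 8.05 and 7.78 in the controls and 7.83, 7.16 and 6.88 with NeuroD2. These groups overlapped, and the difference of -0.20 did not pass the test (interval at the 0.95 level ±0.56, adjusted p 0.850).

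In MEFs Bmp4 was low without a factor. The controls of batch 1 read 5.63, 5.85 and 5.78, and the MEFs with MyoD 5.88, 5.98 and 6.18. The groups did not overlap, but the difference of 0.26 did not pass the test (interval ±0.56, adjusted p 0.634). The controls of batch 2 read 5.77, 5.78 and 6.29, and the MEFs labelled NeuroD2 10.27, 9.89 and 9.97. Every array of that group lay far above every control, and Bmp4 rose by 4.10 (SE 0.268, 17.1-fold, limma adjusted p 3.6e-10). Its mean of 10.04 ± 0.20 (SD, n = 3) was the highest of the 8 groups, above the P19 controls of batch 1 at 8.44 ± 0.17. Below these, the P19 groups of batch 3 (7.49 and 7.29) and P19 with MyoD (6.95) did not differ beyond their spread, and the MEF controls and the MEFs with MyoD lay lowest, with means of 5.75 to 6.01.

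The promoter of Bmp4 is shown beside those of Chrd, which rose in MEFs with either label, of Grem1, which fell in both, and of Tgfbi, the largest fall with MyoD. They are shown because MyoD and NeuroD2 bind E-boxes, the letters CANNTG. Each sequence covers the 250 bases before the annotated start, on the gene's own strand, 5′ to 3′, from RefSeq on GRCm38.p6, with E-boxes in capitals. The Bmp4 window is chr14:46390670-46390919 (minus strand), Chrd chr16:20732877-20733126 (plus), Grem1 chr2:113758649-113758898 (minus) and Tgfbi chr13:56609336-56609585 (plus).
Bmp4: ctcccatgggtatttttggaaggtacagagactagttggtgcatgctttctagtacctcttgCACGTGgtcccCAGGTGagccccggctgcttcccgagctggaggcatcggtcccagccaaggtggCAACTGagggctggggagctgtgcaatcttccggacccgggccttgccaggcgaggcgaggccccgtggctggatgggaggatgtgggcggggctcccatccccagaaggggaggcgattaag
Chrd: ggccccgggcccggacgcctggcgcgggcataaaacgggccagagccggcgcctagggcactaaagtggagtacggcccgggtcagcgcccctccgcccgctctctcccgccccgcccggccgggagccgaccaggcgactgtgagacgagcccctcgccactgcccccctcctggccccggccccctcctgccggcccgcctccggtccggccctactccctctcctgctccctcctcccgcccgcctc
Grem1: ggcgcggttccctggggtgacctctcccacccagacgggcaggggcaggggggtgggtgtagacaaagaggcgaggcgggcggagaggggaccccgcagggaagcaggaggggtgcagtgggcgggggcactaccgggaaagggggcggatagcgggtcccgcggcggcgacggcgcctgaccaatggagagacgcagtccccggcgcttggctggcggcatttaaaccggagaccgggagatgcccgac
Tgfbi: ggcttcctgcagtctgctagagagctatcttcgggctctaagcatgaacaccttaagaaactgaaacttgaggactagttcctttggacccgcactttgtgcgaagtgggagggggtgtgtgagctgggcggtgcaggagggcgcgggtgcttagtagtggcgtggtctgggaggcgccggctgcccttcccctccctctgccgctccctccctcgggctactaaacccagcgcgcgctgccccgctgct
The Bmp4 window held 3 E-boxes. The first, CACGTG, begins 188 bases before the start, the next, CAGGTG, 177 bases before it, and the last, CAACTG, 123 bases before it. The windows of Chrd, Grem1 and Tgfbi held 0, as did those of Smad6 and Inhbb, which are not shown. Windows were found for 35 of the 48 members, 41 windows in all, and 41.5% of them held CANNTG, against 66.2% of 32851 windows over all genes. CAGCTG, which both factors can bind, was in 4.88% of the member windows and 13.0% of all, and CAGATG or its reverse complement CATCTG in 12.2% and 14.4%. CANNTG and CAGCTG read the same on both strands, and CANNTG includes the other motifs.

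The other BMP and GDF ligands moved little, and many of them read low. In MEFs labelled NeuroD2, Bmp6, a BMP ligand, rose from 4.79 to 5.78, by 0.99 (SE 0.176, limma adjusted p 0.000372). Gdf9, a ligand best known from the oocyte, rose by 0.45 with MyoD and 0.41 in the MEFs labelled NeuroD2. In P19 cells 0 ligands of this group other than Bmp4 were called with either factor. Bmp5, Bmp8a, Bmp15 and Gdf5 had group means between 4.37 and 5.63 throughout, where a log2 array signal is close to background and differences can be understated. The call of Gdf9 in the MEFs labelled NeuroD2 ended without control replicate 1 or 2 or NeuroD2 replicate 2 or 3 (0.37 to 0.47, adjusted p up to 0.0890).

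Tgfb1, a TGF-beta ligand of many tissues, was lower than its batch control in all 4 factor comparisons, each time past the test. In P19 cells of batch 1 the controls read 6.87, 6.61 and 6.95 and the cells with MyoD 6.25, 6.20 and 6.0. All MyoD arrays lay below all controls, and Tgfb1 fell by 0.66 (SE 0.133, limma adjusted p 0.00681), though not without MyoD replicate 3 (range over left-out arrays -0.76 to -0.59, adjusted p up to 0.0596). In batch 3 the P19 controls read 8.37, 8.63 and 8.74 and the cells with NeuroD2 8.37, 7.86 and 7.88. Tgfb1 fell by 0.55 (SE 0.133, adjusted p 0.0105), with the lowest control next to the highest NeuroD2 array, and the call ended without control replicate 3 or NeuroD2 replicate 2 or 3 (-0.72 to -0.46, adjusted p up to 0.0797). In MEFs it fell by 1.57 with MyoD, from 8.54 to 6.97, and by 0.83 in those labelled NeuroD2, from 9.06 to 8.23. The P19 controls of the batches were 1.77 apart for Tgfb1, more than any of these falls. Against the other batch's controls Tgfb1 rose by 1.22 in P19 cells with NeuroD2 (adjusted p 1.06e-06) and fell by 2.43 in those with MyoD, and the difference of -0.31 in MEFs labelled NeuroD2 was not called (0.132). Its second probe set was called in 0 of the 4 comparisons, with differences of -0.12, -0.04, -0.20 and -0.21.

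Tgfb3, a TGF-beta ligand, fell under the NeuroD2 label in both cell types and with MyoD in MEFs. The batch 3 P19 controls read 8.68, 7.93 and 8.07, and with NeuroD2 Tgfb3 read 7.38, 7.39 and 7.41. The groups did not overlap, and Tgfb3 fell by 0.83 (SE 0.143, limma adjusted p 0.000426). Against the P19 controls of batch 1 the difference was -0.28 and not called (adjusted p 0.135). In batch 2 the MEF controls read 10.82, 10.73 and 10.84 and the MEFs labelled NeuroD2 9.15, 9.27 and 9.28. All 3 lay below the controls, and Tgfb3 fell by 1.56 (SE 0.143, adjusted p 5.98e-08), and by 0.93 against the batch 1 controls. With MyoD it fell by 1.36 in MEFs (from 10.16 to 8.81) and differed by -0.09 in P19 cells, short of the test.

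Tgfb2 went the other way in MEFs. The batch 2 controls read 6.23, 6.28 and 6.24, and the MEFs labelled NeuroD2 8.19, 8.28 and 8.24. The groups lay well apart, and Tgfb2 rose by 1.99 (SE 0.603, limma adjusted p 0.0329). The SE pools all groups, among them the P19 controls of batch 3 with an SD of 2.17. The call ended without any 1 of these 6 arrays (1.96 to 2.01, adjusted p up to 0.0937). The other 3 Tgfb2 probe sets rose as well, by 1.96, 1.36 and 2.19. With MyoD the difference in MEFs was 1.27 and did not pass the test.

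Inhbb encodes a subunit shared between activins, which signal, and inhibins, which oppose them, and Inha encodes a subunit of inhibins alone. In MEFs the Inhbb controls of batch 1 read 8.23, 8.38 and 8.34, and the MEFs with MyoD 10.25, 10.14 and 10.45. The groups did not overlap, and Inhbb, the activin beta B subunit, rose by 1.96 (SE 0.218, limma adjusted p 4.05e-07). The MEF controls of batch 2 read 1.22 higher, and against them the rise was 0.74 (adjusted p 0.0126). In P19 cells the controls read 5.03, 5.77 and 4.95 and the cells with MyoD 4.20, 4.41 and 4.48. There Inhbb fell by 0.88 (SE 0.218, adjusted p 0.0306). Without control replicate 2, the highest of the 3 controls, the difference was -0.62 (adjusted p 0.10), and the call also ended without each of the MyoD arrays (-1.03 to -0.62, adjusted p up to 0.149). The second Inhbb probe set was not called in these P19 cells. Inhba, the activin beta A subunit, fell in MEFs by 1.25 with MyoD (from 10.04 to 8.79) and by 0.94 in those labelled NeuroD2 (from 9.92 to 8.97). In the latter the call ended without control replicate 1 or 2 or any NeuroD2 array (-1.0 to -0.87, adjusted p up to 0.0976), and the second Inhba probe set was called in neither. Inha, the inhibin alpha subunit, fell by 0.45 with MyoD and rose by 0.42 in the MEFs labelled NeuroD2. The rise ended without control or NeuroD2 replicate 1 or 2 (0.32 to 0.57, adjusted p up to 0.143).

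**Figure D2:**
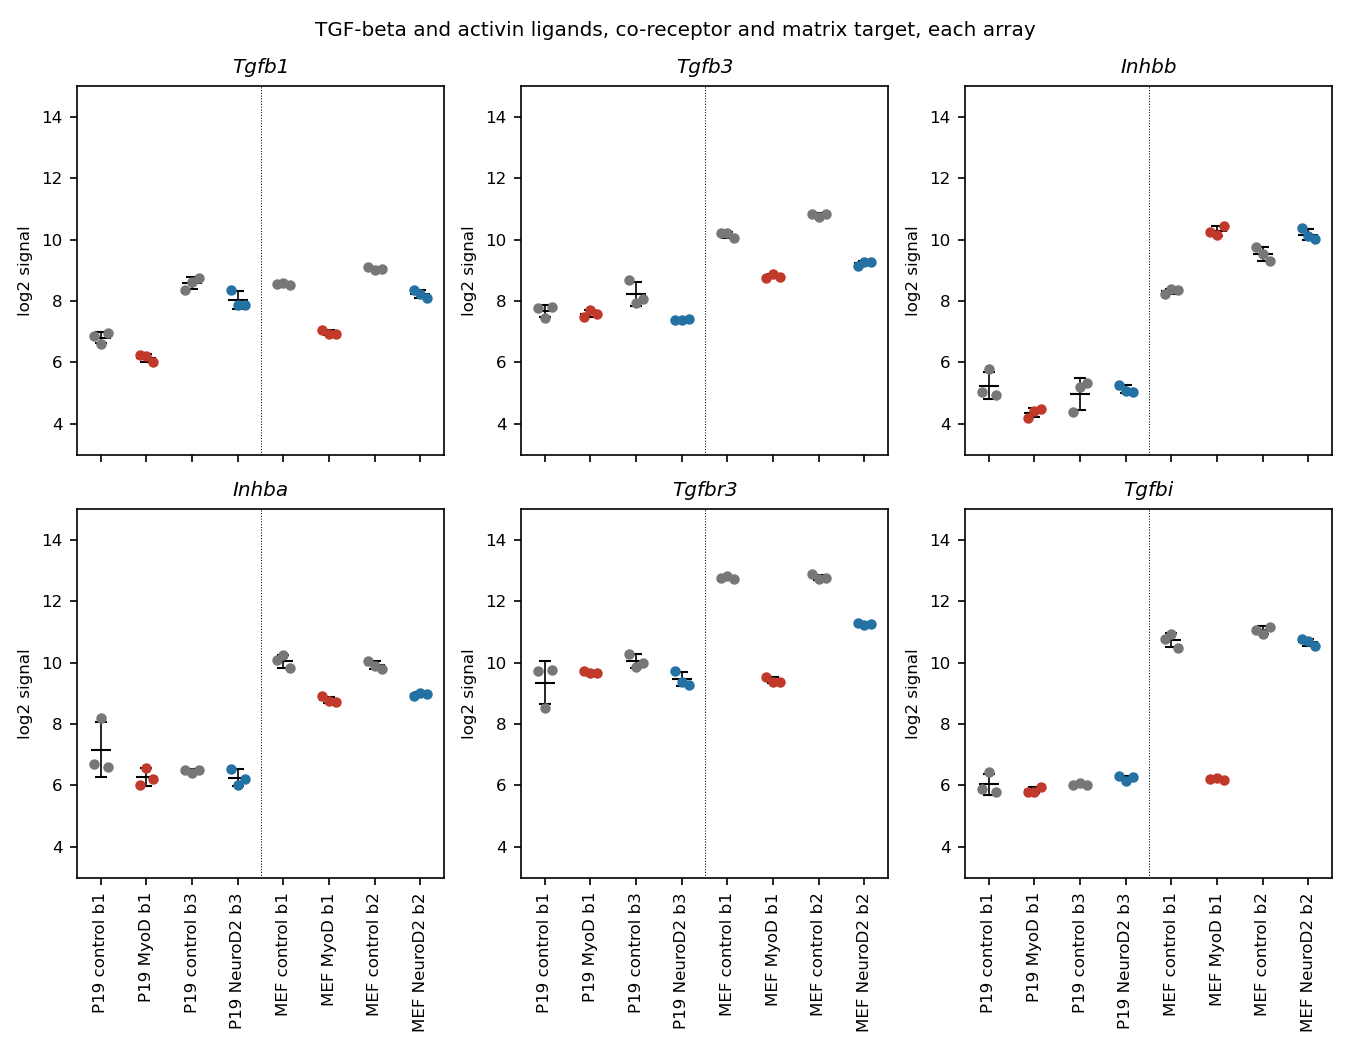
Log2 signal of 6 members on each of the 24 arrays (points), with the mean (short line) and SD (bars) of each group of 3; b1 to b3 are batches, grey is control, red MyoD and blue NeuroD2. Tgfbi dropped from 10.73 to 6.21 with MyoD in MEFs and stayed at 10.66 in those labelled NeuroD2, while Tgfb1 lay below its batch control in all 4 factor groups.

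Of the receptors, Tgfbr3 changed most. Tgfbr3 (betaglycan) is a coreceptor that presents TGF-beta and binds inhibin. The batch 1 MEF controls read 12.75, 12.81 and 12.72, and the MEFs with MyoD 9.53, 9.37 and 9.38. The gap between these groups was many times their spread, and Tgfbr3 fell by 3.34 (SE 0.215, 10.1-fold, limma adjusted p 8.87e-11). In batch 2 the controls read 12.87, 12.72 and 12.75 and the MEFs labelled NeuroD2 11.27, 11.23 and 11.24. Here too the groups did not overlap, and it fell by 1.53 (SE 0.215, adjusted p 2.4e-05). The second Tgfbr3 probe set fell by 2.88 and 1.54. In P19 cells Tgfbr3 was called with neither factor.

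The signalling receptors changed less. Acvr2b, an activin type II receptor, read 6.40, 5.91 and 5.78 in batch 1 MEF controls and 6.89, 6.61 and 6.63 with MyoD. There was no overlap, and it rose by 0.68 (SE 0.192, limma adjusted p 0.0111). That call ended without control replicate 2 or 3 or MyoD replicate 1 (0.55 to 0.86, adjusted p up to 0.0730), and the other 2 probe sets were not called. Against the batch 2 controls the difference was 0.41, short of the test (0.126). Acvr1b, the type I receptor for activin, fell by 0.83 with MyoD and by 0.88 in the MEFs labelled NeuroD2. Bmpr1a, a type I BMP receptor, rose by 0.76 in the MEFs labelled NeuroD2. Of its 5 other probe sets, 2 rose with it and 1 fell, by 1.31, so its direction depends on the probe set.

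In P19 cells the TGF-beta type I and type II receptors moved in opposite directions with NeuroD2. Tgfbr1, the type I receptor, read 10.33, 10.69 and 10.85 in the controls and 11.13, 11.66 and 11.64 with NeuroD2. It rose by 0.86 (SE 0.230, limma adjusted p 0.0214), and the groups did not overlap. Tgfbr2, the type II receptor that binds the ligand, read 8.01, 7.84 and 7.93 in the controls and 7.40, 7.25 and 7.14 with NeuroD2. It fell by 0.67 (SE 0.200, adjusted p 0.0423), with no overlap. The P19 controls of batch 1 read lower by as much, and against them the difference was 0.0058 (adjusted p 0.984). Both calls were close to the threshold. Each of these genes had 3 probe sets. Over the 6 called members of this comparison with other probe sets, 5 of those 10 were called the same way, 0 the other way and 5 not called. Tgfbr1 lost its call without control replicate 1 or NeuroD2 replicate 2 or 3 (0.71 to 1.03, adjusted p up to 0.109), and Tgfbr2 without each of 20 of the arrays (-0.74 to -0.60, adjusted p up to 0.155). The calls of both also ended with each array shifted to the same median. Tgfbr2 differed by 0.38 in P19 cells and -0.17 in MEFs with MyoD and by 0.21 in MEFs labelled NeuroD2, all short of the test.

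Of the Smads, the inhibitory Smad6 moved in opposite directions in MEFs. In batch 2 its controls read 8.33, 8.22 and 8.22 and the MEFs labelled NeuroD2 9.52, 9.55 and 9.62. These groups lay far apart against a spread under 0.1, and Smad6 rose by 1.31 (SE 0.121, limma adjusted p 7.55e-08). With MyoD it fell by 0.81, from 7.87 to 7.07 (adjusted p 2.33e-05). Smad7, the other inhibitory Smad, fell by 0.98 in MEFs with MyoD, from 8.52 to 7.54, and differed by 0.01 in the MEFs labelled NeuroD2. In P19 cells it differed by -0.15 and -0.19, short of the test.

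Smad3, which carries TGF-beta and activin signals, rose in MEFs by 0.64 with MyoD and 0.54 in those labelled NeuroD2. The latter call ended without control replicate 1 or 3 or any NeuroD2 array (0.50 to 0.57, adjusted p up to 0.0925), and against the batch 1 controls (0.45, adjusted p 0.0503). Smad5, which carries BMP signals, read 9.01, 9.07 and 9.24 in batch 3 P19 controls and 10.11, 9.84 and 9.58 with NeuroD2. The groups did not overlap, and it rose by 0.74 (SE 0.205, limma adjusted p 0.0268). The call ended without control or NeuroD2 replicate 1 or 2 (0.61 to 0.87, adjusted p up to 0.131) and with each array shifted to the same median. Smad1, Smad2, Smad4 and Smad9 were called in 0 of the 4 factor comparisons.

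Among the secreted antagonists, Grem1, Fst and Chrd were called in both MEF comparisons. Grem1 encodes gremlin, which binds BMP2, BMP4 and BMP7 and keeps them from their receptors. In batch 2 the MEF controls read 10.29, 10.18 and 10.19 and the MEFs labelled NeuroD2 5.43, 5.68 and 5.72. Every array of the second group was more than 4 log2 units below every control, and Grem1 fell by 4.61 (SE 0.140, 24.4-fold, limma adjusted p 1.36e-15). The lower mean, 5.61, lies where signals are close to background, so the fold can be understated. In batch 1 the controls read 9.70, 9.98 and 10.12 and the MEFs with MyoD 6.92, 6.92 and 7.25. Those groups were also apart, and it fell by 2.90 (SE 0.140, 7.47-fold, adjusted p 7.52e-13). In P19 cells Grem1 stayed between means of 5.27 and 5.56 in all 4 groups, the level of the MEFs labelled NeuroD2.

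Fst, which encodes the activin and myostatin antagonist follistatin, rose with MyoD and fell in the MEFs labelled NeuroD2. The batch 1 MEF controls read 9.22, 9.18 and 9.25 and the MEFs with MyoD 11.27, 11.45 and 11.41. With no overlap, Fst rose by 2.16 (SE 0.182, 4.47-fold, limma adjusted p 6.42e-09). The batch 2 controls read 9.45, 9.27 and 9.42 and the MEFs labelled NeuroD2 7.56, 7.60 and 7.62. With no overlap, Fst fell by 1.79 (SE 0.182, 3.45-fold, adjusted p 2.84e-07). The second Fst probe set gave 2.17 and -1.50, both called. In P19 cells the differences were 0.00 and 0.06, both short of the test.

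Chrd encodes chordin, a BMP antagonist of the embryonic organiser, and rose in both MEF comparisons. With MyoD it went from 6.54, 6.52 and 6.64 to 8.76, 8.98 and 8.82. The groups were apart, and the rise was 2.29 (SE 0.283, 4.88-fold, limma adjusted p 1.84e-06). In batch 2 it went from 6.77, 6.76 and 6.99 to 8.45, 8.79 and 8.27. These groups were apart too, and the rise was 1.67 (SE 0.283, adjusted p 0.000228). In P19 cells with NeuroD2 it differed by 0.78, short of the test.

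**Figure D3:**
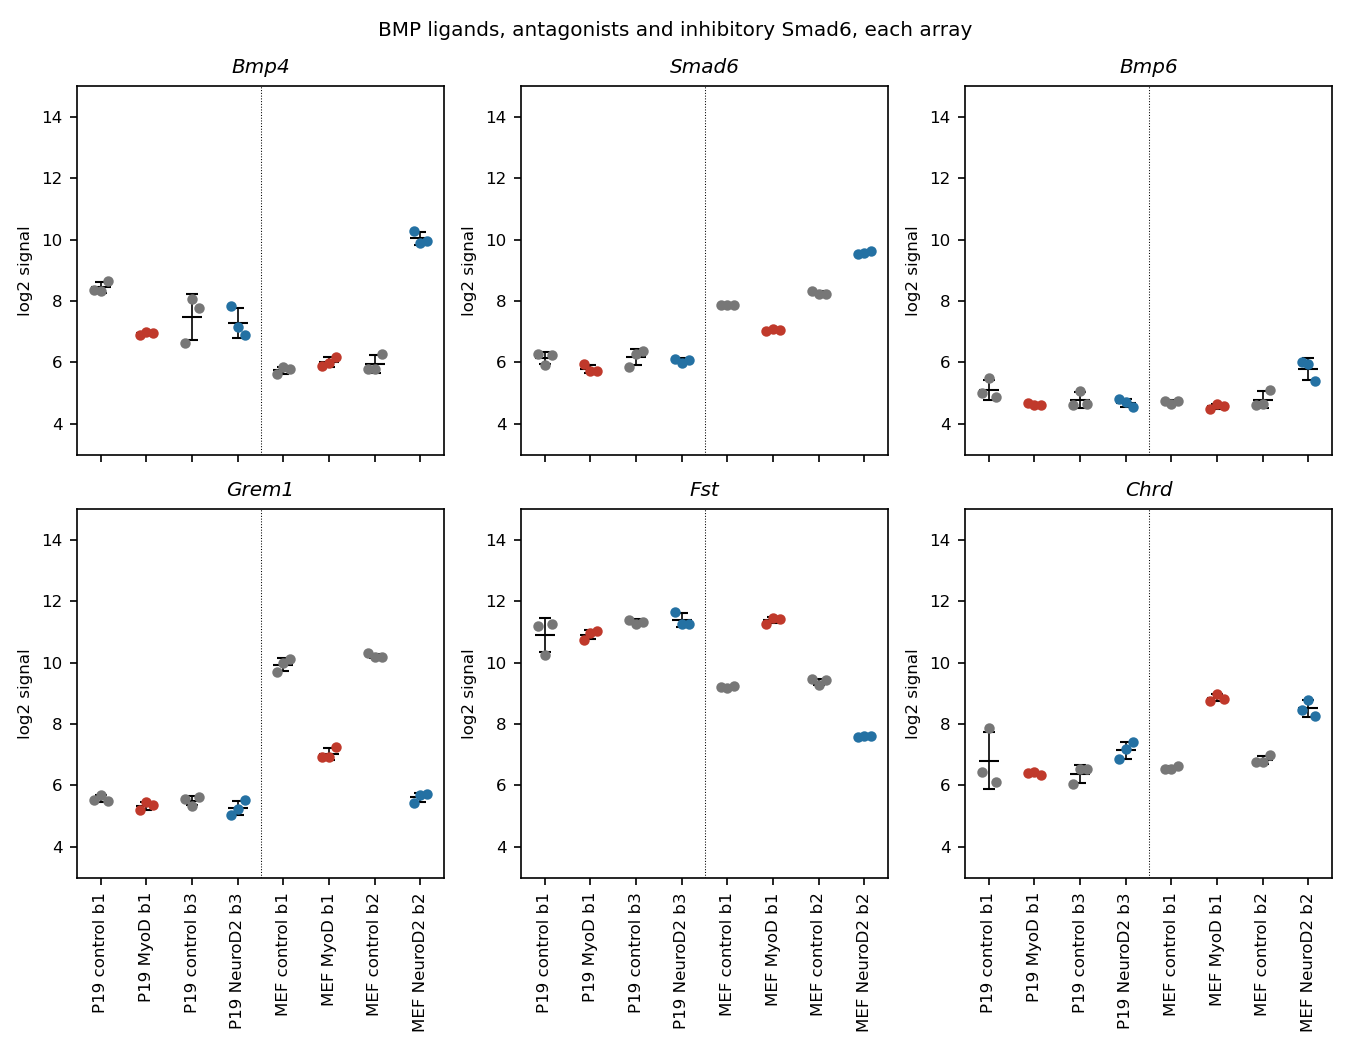
Log2 signal of 6 members on each of the 24 arrays (points), with the mean (short line) and SD (bars) of each group of 3; b1 to b3 are batches, grey is control, red MyoD and blue NeuroD2. In the MEFs labelled NeuroD2, Bmp4 (10.04), Smad6 (9.56) and Chrd (8.50) stood above their batch 2 controls and Grem1 (5.61) and Fst (7.59) below them.

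Fstl1, a secreted glycoprotein of fibroblasts related to follistatin, fell in 3 of the 4 comparisons. In MEFs with MyoD it read 11.48, 11.34 and 11.30, against 13.71, 13.71 and 13.69 in the controls. The groups were far apart, and it fell by 2.33 (SE 0.136, limma adjusted p 1.84e-11). In P19 cells with NeuroD2 it read 11.42, 11.45 and 11.46, against 11.82, 12.20 and 12.14. Without overlap, it fell by 0.61 (SE 0.136, adjusted p 0.00562; -0.36 and not called, 0.0554, against the batch 1 controls), and by 0.66 in the MEFs labelled NeuroD2, from 13.76 to 13.10. Nog, which encodes the BMP antagonist noggin, was called in 0 of the 4 comparisons, with differences of -0.11 and 0.33 with MyoD and -0.33 and -0.38 with NeuroD2 in P19 cells and MEFs. Fstl3, a follistatin-like activin antagonist, was also called in 0.

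Bmp1 is not a BMP but a protease that cleaves chordin and procollagen, and Tgfbi is a matrix protein induced by TGF-beta. Tgfbi read 10.76, 10.94 and 10.47 in the batch 1 MEF controls and 6.21, 6.23 and 6.19 with MyoD. With MyoD it was at the level of the P19 groups (5.84 to 6.24), and it fell by 4.52 (SE 0.138, 22.9-fold, limma adjusted p 3.38e-16). Its other 3 probe sets fell by 4.51, 5.17 and 5.81. In the MEFs labelled NeuroD2 it differed by -0.39 (adjusted p 0.0781), and was called lower without replicate 2 of the batch 1 P19 controls. In P19 cells it differed by -0.19 with MyoD and 0.20 with NeuroD2. In that last comparison 2 of its other probe sets were called, at 0.74 and 0.72, so the choice of probe set matters there.

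Bmp1 fell by 1.73 in MEFs with MyoD, from 10.94 to 9.21 (SE 0.185, limma adjusted p 2.46e-07). In batch 3 P19 cells it read 7.01, 7.77 and 7.53 in the controls and 8.24, 8.55 and 8.51 with NeuroD2. These groups did not overlap, and Bmp1 rose by 0.99 (SE 0.185, adjusted p 0.00102; 0.48 and not called, 0.0561, against the batch 1 controls), with a second probe set rising by 1.13 and the third at -0.12. In the MEFs labelled NeuroD2 the difference was -0.04, short of the test.

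The differences of the MEF comparisons come from separate arrays. Their tests use the same pooled spread for each gene, however, so calls in both are not independent. A gene with a small pooled spread is more easily called in both. Of the 18 members called with MyoD and the 17 called in MEFs labelled NeuroD2, 13 were called in both, 72.2% and 76.5% of each list. Over all genes the shares were 28% and 57.4%. Of the 13, 10 moved the same way, and 69.2% of the genes called in both overall did so. Chrd, Gdf9 and Smad3 rose in both, and Acvr1b, Fstl1, Grem1, Inhba, Tgfb1, Tgfb3 and Tgfbr3 fell in both. The 3 that moved in opposite directions were Fst, up with MyoD and down in those labelled NeuroD2, and Inha and Smad6, down with MyoD and up in the other. In P19 cells, Tgfb1 was the 1 member called with both factors, 33.3% of the 3 called with MyoD and 14.3% of the 7 called with NeuroD2, near the 31.2% and 10.2% over all genes.

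The difference between the factors' effects was tested directly, as a contrast of contrasts in limma. In MEFs 3 members were higher with MyoD (6.25% against 8.33% of all genes) and 12 lower (25% against 10.5%), so the lower share alone stood above the background. The higher ones were Fst at 3.95 (adjusted p 2.11e-10), Grem1 at 1.71 and Inhbb at 1.33, the last with MEF control batches 1.22 apart. Of the lower ones the largest were Tgfbi at -4.13, Bmp4 at -3.84, Smad6 at -2.11, Tgfbr3 at -1.81, Bmp1 at -1.69 and Fstl1 at -1.67. In P19 cells 2 members were higher with MyoD (4.17% against 2.6% of all genes), Tgfbr2 at 1.05 and Tgfb3 at 0.74, and 1 was lower (2.08% against 2.93%), Bmp1 at -1.24. With a further quantile normalization those counts were 2 and 3, against 3.41% and 4.08% of all genes. In P19 cells the total of 3 became 1 without MyoD replicate 2 or 3 or NeuroD2 replicate 2, 6 without control replicate 2 of batch 3, and 7 without control replicate 1 or 3 of batch 1. With 1 called, 1.7% to 1.82% of all genes were higher and 2.23% to 2.45% lower. The 6 were 4.17% higher and 8.33% lower, against 1.83% and 2.73% of all genes. The 7 were 6.25% and 8.33% without control replicate 1, against 6.28% and 3.65% of all genes. Without control replicate 3 they were 8.33% and 6.25%, against 9.16% and 4.42%. Factor and batch differ together in these comparisons, beyond what each batch's own controls remove, and cannot be told apart. Without replicate 2 of the batch 1 P19 controls the counts were 5 higher and 16 lower in MEFs (10.4% and 33.3%, against 16.3% and 19.4% of all genes) and 3 and 7 in P19 cells (6.25% and 14.6%, against 4.52% and 6.45%).

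**Figure D4:**
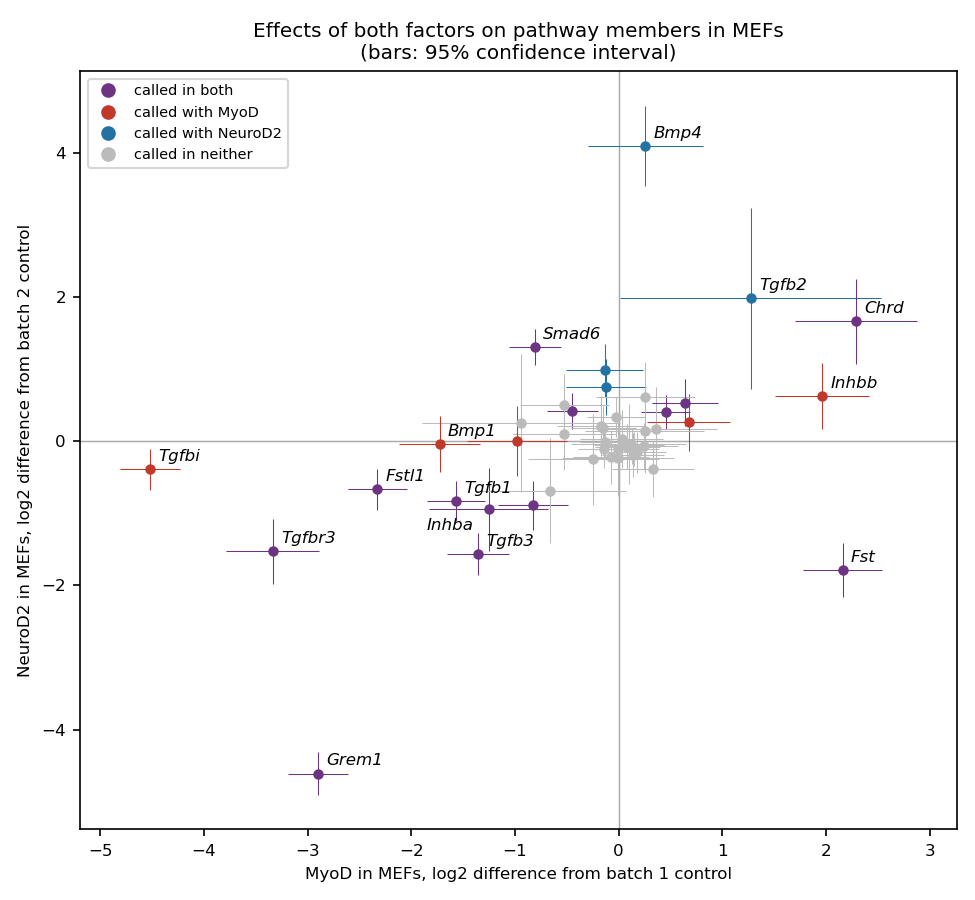
Log2 difference of each member in MEFs with MyoD (x axis) and in MEFs labelled NeuroD2 (y axis), each against its own batch control, with confidence intervals at the 0.95 level; purple marks members called in both. Grem1 (-2.90 and -4.61) lies at the lower left, Chrd (2.29 and 1.67) at the upper right, Fst (2.16 and -1.79) at the lower right, and Bmp4 (0.26 and 4.10) on top.

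Each factor's effect was also compared between the cell types. The effect of MyoD was higher in MEFs than in P19 cells for 6 members (12.5% against 6.39% of all genes) and lower for 12 (25% against 14.7%). Inhbb, with 1.96 in MEFs and -0.88 in P19 cells, and Chrd, with 2.29 and -0.40, led the first set, and Tgfbi and Tgfbr3 the second. Acvr1, a type I BMP receptor, was among the lower (-1.88), with -0.94 in MEFs and 0.94 in P19 cells, neither of them called. Over all genes 1163 were higher and 2677 lower, but 2128 and 2561 after a further quantile normalization. Without replicate 2 of the P19 controls 9 members were higher and 13 lower (18.8% and 27.1%, against 13.7% and 16.8% of all genes). The effect of NeuroD2 was higher in MEFs for 3 members (6.25% against 4.53% of all genes), Bmp4, Smad6 and Bmp6. It was lower for 5 (10.4% against 5.63%), Grem1, Fst, Acvr1b, Bmp1 and Tgfb3, and cell type and batch differ together there. With a further quantile normalization these counts were 6 and 6 (12.5% each, against 7.46% and 8.06% of all genes), and without that control array 7 and 9 (14.6% and 18.8%, against 12.6% and 12.3%).

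Before any factor, the cell types already differed widely in these genes. In untransduced MEFs against untransduced P19 cells of batch 1, 18 members were higher (37.5% against 24.8% of all genes) and 10 lower (20.8% against 26.9%). The median was -0.08 over the members and -0.12 over all genes. The higher share stood above the background and the lower share below it. With each array shifted to the same median the counts were 19 and 6 (39.6% and 12.5%, against 26.5% and 21.8% of all genes), and without replicate 2 of the P19 controls 17 and 13 (35.4% and 27.1%, against 24.1% and 31.4%).

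Of the 6 genes grouped as TGF-beta and activin ligands, the inhibin subunit Inha among them, 5 were higher in MEFs and 1, Tgfb2, was lower. Over all genes 24.8% were higher and 26.9% lower. Tgfbi was higher by 4.69 (25.8-fold), the coreceptor Tgfbr3 by 3.42 and Tgfbr2 by 3.97, although 1 of the other Tgfbr2 probe sets gave 0.11. The ligand subunits Inhbb, Inhba, Tgfb3, Tgfb1 and Inha were higher by 3.07, 2.88, 2.49, 1.73 and 1.14. For Inhba a second probe set was lower in MEFs, by 0.76, and those of Inhbb and Tgfb1 were not called (-0.03 and 0.07). The BMP type II receptor Bmpr2 was higher by 2.73 and Acvr1 by 2.37 (1.39 without P19 control replicate 2, which read 6.37 against 9.16 and 9.48). Grem1 was higher by 4.37, Bmp1 by 2.99, Fstl1 by 1.90, Smad6 by 1.74 and Smad1 by 0.95 (0.37 without that array).

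Of the 14 BMP and GDF ligands, 4 were lower in MEFs and 0 higher, and of the 6 antagonists and follistatins 3 were lower and 2 higher. Beside these stand 26.9% of all genes lower and 24.8% higher, so 4 of 14 lower lies near the background. Acvr2b was lower in MEFs by 4.28 (19.4-fold), Tgfb2 by 2.82, Bmp4 by 2.69, Nog by 2.60, Fst by 1.68 and Bmp7, a BMP ligand of kidney and neural development, by 1.03. Smaller differences were those of Fstl3 (-0.63), Acvr1b (-0.52), Bmp8b (-0.44) and Gdf10 (-0.32), the last a BMP relative also named Bmp3b. The call of Fstl3 ended without any of 22 of the arrays, and its difference was -0.12 without P19 control replicate 2 (adjusted p 0.469). Those of Acvr1b (without P19 control replicate 1 or 3, adjusted p up to 0.0651), Bmp8b (without MEF control replicate 3, 0.0550) and Gdf10 (without P19 control replicate 3 or MEF control replicate 2 or 3, up to 0.111) ended too. Acvr2a, which was higher in MEFs by 0.70, differed by 0.14 without P19 control replicate 2 (adjusted p 0.368). Smad7 differed by 0.45, short of the test. Between the controls of batches 2 and 3, the MEF minus P19 difference was 0.47 for Tgfb1, -1.55 for Bmp4 and -1.49 for Tgfb2, all called, while Smad1 (0.21), Bmp8b (-0.20) and Fstl3 (0.14) were not. This comparison shares its control arrays with those of MyoD.

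**Figure D5:**
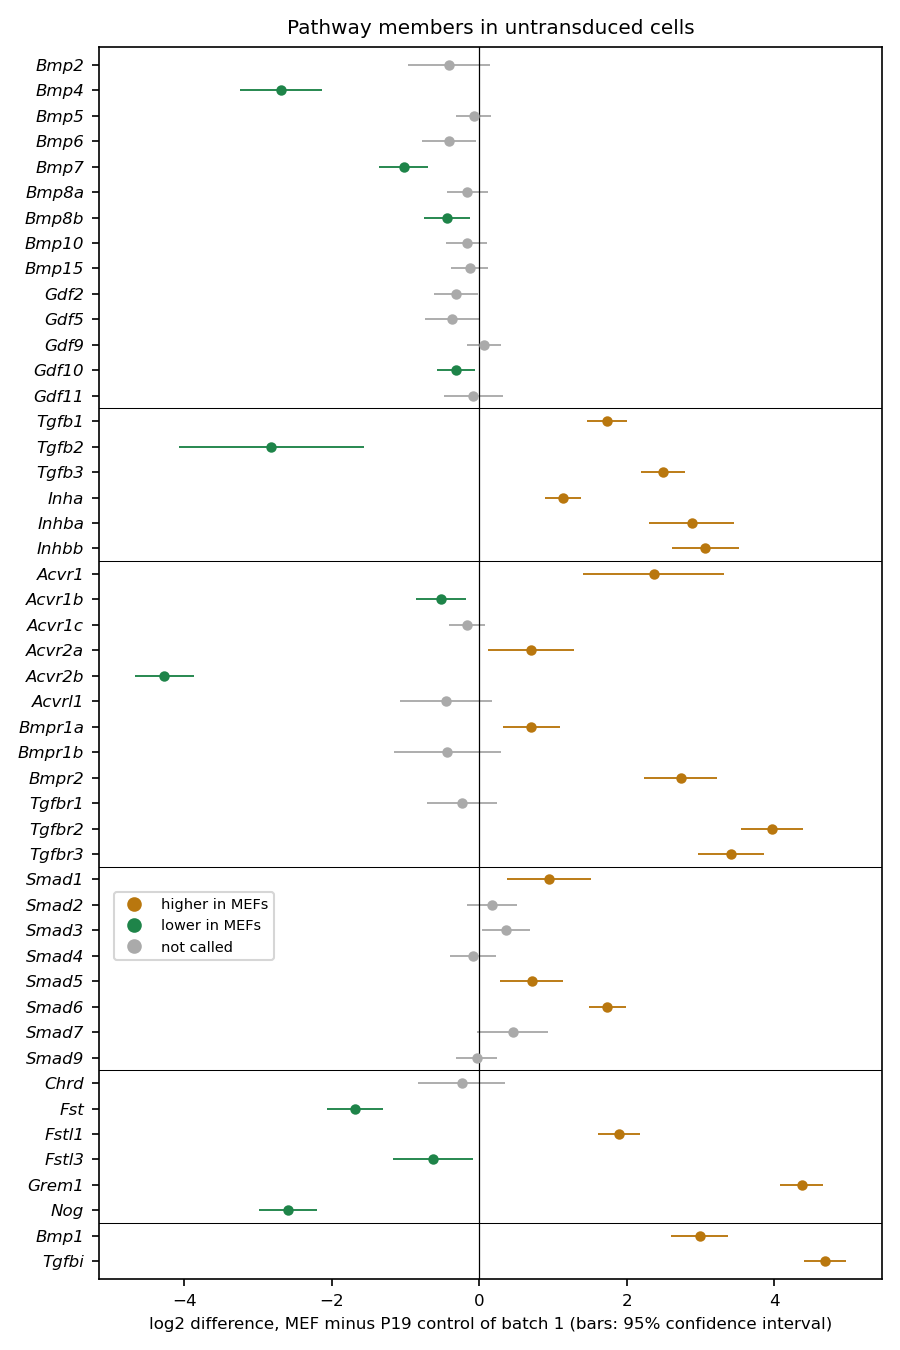
Log2 difference of each of the 48 members between untransduced MEFs and untransduced P19 cells of batch 1 (3 arrays each), with the confidence interval at the 0.95 level; lines separate the roles. Tgfbi (4.69) and Grem1 (4.37) lie farthest to the right, and Acvr2b (-4.28) farthest to the left.

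The rest of the pathway was described with 5 lists. Of 14 response genes, which BMP or TGF-beta signals are known to induce, 3 rose and 0 fell in P19 cells with MyoD, 3 rose and 1 fell there with NeuroD2, 4 rose and 5 fell in MEFs with MyoD, and 5 rose and 3 fell in MEFs labelled NeuroD2. In that order 21.4%, 21.4%, 28.6% and 35.7% of the list rose, against 2.03%, 5.1%, 10.8% and 6.41% of all genes, and 0%, 7.14%, 35.7% and 21.4% fell, against 0.676%, 3.24%, 14.5% and 5.94%. Id1 and Id2, inhibitors of basic helix-loop-helix factors, rose in all 4 comparisons. Id1 rose by 0.66 and 1.94 in P19 cells with MyoD and NeuroD2, and by 1.88 and 2.02 in MEFs. Id2 rose by 1.19, 2.10, 2.66 and 2.29 in the same order. Id4, a relative of Id1, rose by 2.43 in MEFs labelled NeuroD2 and fell by 1.42 in MEFs with MyoD. Atoh8, a helix-loop-helix factor induced by BMP, rose by 1.61 with MyoD and 3.20 in those labelled NeuroD2. The genes that fell were Ccn2 in P19 cells with NeuroD2, and Id4, Ccn2, Timp1, Junb and Snai2 in MEFs with MyoD. In MEFs labelled NeuroD2 the falls were those of Ccn2, Klf10 and Snai1, while Junb rose. Without replicate 2 of the P19 controls 5 response genes rose and 2 fell in P19 cells with MyoD (35.7% and 14.3%, against 2.09% and 1.85% of all genes), and 7 rose and 4 fell in MEFs labelled NeuroD2 (50% and 28.6%, against 13.8% and 13.3% of all genes).

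Of 12 genes of the latent TGF-beta complex and its activation, 6 fell and 1 rose in MEFs with MyoD, 50% and 8.33%, against 14.5% and 10.8% of all genes. Ltbp2, a latent TGF-beta binding protein, fell by 1.17 and the proteoglycan Dcn, also among the fibroblast markers, by 1.80. In the MEFs labelled NeuroD2 2 rose, the fibrillin Fbn2 by 2.13 and Emilin1 by 0.82, and 1 fell, Ltbp1 by 1.99, which is 16.7% and 8.33% against 6.41% and 5.94% of all genes. In P19 cells 1 fell with each factor, Emilin1 (-0.69) with MyoD and Dcn (-2.89) with NeuroD2. That is 8.33% of the list, against 0.676% and 3.24% of all genes. Of 20 further antagonists and coreceptors, 7 fell and 2 rose in MEFs with MyoD, and 2 rose and 2 fell in those labelled NeuroD2. With MyoD the falls were 35% of the list and the rises 10%, against 14.5% and 10.8% of all genes, and in those labelled NeuroD2 each was 10%, near the 6.41% and 5.94% of all genes. Hjv, the BMP coreceptor hemojuvelin, which skeletal muscle expresses, rose by 5.35 with MyoD. Bmper, a regulator of BMP4, fell by 1.97 with MyoD and rose by 0.86 in those labelled NeuroD2. Rgmb, a BMP coreceptor, rose in all 4 factor comparisons, by 0.46 to 1.09. In P19 cells 1 rose and 1 fell with MyoD (5% each, against 2.03% and 0.676% of all genes). With NeuroD2 2 rose there (10%, against 5.1%).

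Of 18 intracellular regulators, 1 rose in P19 cells with MyoD, 1 in P19 cells with NeuroD2 and 1 in MEFs labelled NeuroD2, where 2 fell. A single rise is 5.56% of the list, near the 5.1% and 6.41% of all genes that rose with NeuroD2, and the 2 falls are 11.1% against 5.94%. In P19 cells with MyoD 2.03% of all genes rose. In MEFs with MyoD 2 rose and 4 fell (11.1% and 22.2%, against 10.8% and 14.5%), among them Skil, a repressor of Smads (-0.54), which fell by 0.60 in those labelled NeuroD2 as well. Of 6 other ligands 0 were called in the factor comparisons. Nodal and Lefty1, a ligand of early embryos and its inhibitor, were lower in untransduced MEFs than in P19 cells by 4.59 and 4.36. Of the 6, 5 were lower (83.3%, against 26.9% of all genes) and 0 higher (against 24.8%). Between those controls 8 of the 12 latent complex genes were higher in MEFs and 2 lower, with a median of 3.20. That is 66.7% and 16.7%, against 24.8% and 26.9% of all genes.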

How the data were processed

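RNA of 24 samples in 8 groups of 3 was labelled with biotin and hybridised to Affymetrix mouse arrays, per the labels' protocols. The deposited values are log2 signals, already normalized between arrays by the authors as the array quartiles in the deposited table show, except for replicate 2 of the P19 controls of batch 1. For background, normalization and probe summary, the methods were not given in the sources used here. Limma is the tool named, per the submitters' processing notes. The table has no detection calls, so low signals near background are compressed.

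Of 45101 probe sets, 64 controls, 9160 without a symbol and 932 with several were left out, and 34945 gave 18193 genes by the highest mean per symbol. Group means were fitted to all arrays together (limma 3.58.1, R 4.3.3; lmFit and eBayes, 16 residual and 3.89 prior degrees of freedom). Tests were two-sided and adjusted by Benjamini-Hochberg over all genes of a comparison, with a threshold of 0.05. Each factor was compared with its batch's controls, and differences between effects as contrasts of contrasts.

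The members, lists, tests and alternatives were chosen with earlier results of these data known. The rule named the called members of each comparison of groups (at most 15 each way), Bmp4, Tgfb1, Tgfbr2, Smad7, Nog, Fst and Tgfbi always, and at most 6 each way for differences between effects. Sample values were given for Bmp4 and the 4 largest rises and falls of each factor comparison. Counts without replicate 2 of the P19 controls of batch 1 were added after seeing the data, for that array alone. Promoters came from RefSeq.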

Additional observations from a re-analysis of the deposited data

Results flagged for a closer look

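The members below are those whose response to a factor differed most between MEFs and P19 cells, at most 6 each way. They were tested as a contrast of contrasts in limma with adjustment over all 18193 genes. For MyoD the response was higher in MEFs by 2.85 for Inhbb (adjusted p 6.01e-07), 2.69 for Chrd (3.75e-05), 2.68 for Tgfb2 (0.0287), 2.16 for Fst (2.16e-06), 1.75 for Bmp4 (0.00184) and 0.45 for Gdf9 (0.04996). Of these, Inhbb moved in opposite directions past the test in the cell types, Bmp4 fell in P19 cells and was not called in MEFs, and Tgfb2 was called in neither cell type. The 6 became 4 without MEF control replicate 2 or 3 of batch 1 or any 1 array with MyoD. That is 8.33%, against 5.24% to 5.48% of all genes.

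The response to MyoD was lower in MEFs for Tgfbi at -4.33 (limma adjusted p 7.01e-13), Tgfbr3 at -3.67 (1.12e-08), Grem1 at -2.68 (2.02e-09), Fstl1 at -2.17 (3.44e-08), Acvr1 at -1.88 (0.0435) and Bmp1 at -1.48 (0.000271). These 6, the largest of 12 called lower, were also higher in untransduced MEFs than in untransduced P19 cells, a comparison that shares the control arrays. Of the others called lower, Tgfb3, Tgfb1, Inha, Bmpr2 and Smad5 were higher there too, and Acvr1b was lower. The call of Acvr1 ended without any of 19 of the arrays, with -0.90 without replicate 2 of the P19 controls.

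For NeuroD2 the response was higher in MEFs for Bmp4 at 4.30 (limma adjusted p 6.66e-08), Smad6 at 1.42 (4.52e-06) and Bmp6 at 1.08 (0.00547). It was lower for Grem1 at -4.38 (1.56e-12), Fst at -1.84 (2.91e-05), Acvr1b at -1.06 (0.00331), Bmp1 at -1.03 (0.0121) and Tgfb3 at -0.73 (0.0210). Bmp4 rose and Grem1 fell by large steps in MEFs whose arrays show no rise of Neurod2, and the identity of the factor in those cells was not tested.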

How the results depend on the processing

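Of 102 called differences, 96 kept direction and call after a further quantile normalization, 92 with each array shifted to the same median, 78 of 78 without dim genes, 100 with the mean of all probe sets, 101 without probe sets ending in _s_at or _x_at, 88 with only the arrays compared, 101 with limma's trend and 102 with array weights, a fit that did not reach its convergence tolerance. With the controls of the other batch, 57 of 70 kept both, 10 lost the call and 3 reversed. Causes were not tested. Low signals near background limit what the arrays can resolve.

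Called members changed in number as follows. In P19 cells with MyoD (3) they were 6 with the mean of all probe sets, 1 with only the arrays compared, 24 with array weights and 7 with the other batch's controls, and 1 (without MyoD replicate 3) to 24 (without control replicate 3) over left-out arrays. With weights 16.9% of all genes were called higher and 20.6% lower, and with the other controls 5.13% and 6.28%. With only the arrays compared these shares were 0.247% and 0.0275%. They were 1.12% and 0.198% without MyoD replicate 3, and 26.6% and 16.6% without control replicate 3. The mean of all probe sets called 418 genes higher and 174 lower. In MEFs with MyoD (18) they were 30 with only the arrays compared and 33 with weights (17 to 24 over left-out arrays). Of all genes 23.2% were called higher and 26.9% lower with only the arrays compared, and 25.1% and 28.6% with weights. At the highest left-out count, without P19 control replicate 2 of batch 1, the shares were 18.1% and 22.5%. At the lowest they were 8.89% to 9.14% and 11.8% to 12.5%. In P19 cells with NeuroD2 (7) they were 4 with the median shift, 21 with weights and 16 with the other controls, and 3 (without NeuroD2 replicate 2) to 16 (without P19 control replicate 2 of batch 1) over left-out arrays. Of all genes 4.39% were called higher and 3.23% lower with the median shift, and 14.5% and 18.4% with weights. With the other controls these shares were 16.7% and 11.4%. They were 3.81% and 1.81% without NeuroD2 replicate 2, and 10.9% and 11.2% without P19 control replicate 2 of batch 1. In MEFs labelled NeuroD2 (17) they were 29 with weights (12 to 24), where 21.9% of all genes were called higher and 23.4% lower with weights. For untransduced cells (28) left-out arrays gave 24 to 32. At the lowest count 23.1% of all genes were called higher and 22.7% lower, and at the highest 27.5% and 31.9%. The MyoD effect between cell types (18) gave 36 with weights (13 to 27), and that of NeuroD2 (8) gave 16 with only the arrays compared and 24 with weights (7 to 16, the highest without that same control). For MyoD 27.1% of all genes were called higher and 27.6% lower with weights. For NeuroD2 the shares were 8.23% and 8.4% with only the arrays compared, and 20.5% and 19.2% with weights. With 7 called they were 3.68% to 3.88% and 4.74% to 5.27%, and with the 16 of the left-out control 12.6% and 12.3%. MyoD against NeuroD2 in P19 cells (3) gave 5 with quantile normalization, 9 with the mean of probe sets, 0 with only the arrays compared, 16 with weights and 1 to 10 over left-out arrays, the highest without that control too. Of all genes 3.41% were called higher and 4.08% lower with quantile normalization, and 16.7% and 14.4% with weights. With only the arrays compared the shares were 0.484% and 1.28%, and the mean of probe sets called 574 and 674 genes. In MEFs MyoD against NeuroD2 (15) gave 27 with only the arrays compared and 28 with weights (14 to 21). There the shares of all genes were 19.6% and 23.6% with only the arrays compared, and 24.7% and 26.5% with weights.

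Some small differences changed sign. In P19 cells with MyoD, Fst gave -0.26 with quantile normalization, -0.13 with the mean of probe sets, -0.30 with weights (adjusted p 4.71e-05), -0.42 with the other controls and -0.33 to 0.18 over left-out arrays, and Tgfbi gave 0.033 without _s_at and _x_at probe sets and -0.31 to 0.0037. There Tgfbr2 gave -0.012 to 0.59 and -0.29 with the other controls, Smad7 -0.44 to 0.022 and Nog -0.35 to 0.052. In MEFs labelled NeuroD2, Smad7 gave -0.015 with quantile normalization, -0.020 with the mean of probe sets, -0.046 with weights, -0.056 with the other controls and -0.086 to 0.074 over left-out arrays. In P19 cells with NeuroD2, Bmp4 gave -0.63 to 0.078 and Fst -0.077 to 0.13, with -0.016 for Fst with weights. With the other batch's controls, Tgfb1 rose there by 1.22 (adjusted p 1.06e-06), Smad7 by 0.63 (0.0492), and Tgfbr2 and Nog gave 0.0058 and 0.090. Nog gave -0.20 in MEFs with MyoD and 0.15 in those labelled NeuroD2, and between untransduced cells Fstl3 gave 0.14 and Smad7 -0.43.

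Samples share replicate numbers, but same-numbered samples of a comparison deviated together with correlations of only -0.194 to 0.342, so the numbers were not taken as pairs. With the replicate block the called members numbered 2 and 18 with MyoD and 5 and 17 with NeuroD2 in P19 cells and MEFs, 28 between untransduced cells, 16 and 8 for the effects between cell types, and 1 and 15 for MyoD against NeuroD2 in P19 cells and MEFs, and 94 of the 102 calls held. In the factor comparisons, in the same order, 1.65%, 10.2%, 4.83% and 5.93% of all genes then rose. In that order 0.456%, 13.8%, 2.77% and 5.62% fell. Between untransduced cells 24.2% of all genes were higher and 25.4% lower. For the effects between cell types the shares were 5.86% and 13.2% with MyoD and 4.17% and 5.36% with NeuroD2. For MyoD against NeuroD2 they were 2.19% and 2.84% in P19 cells and 7.76% and 9.93% in MEFs.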
